A study of Rattus norvegicus with 28 samples.

Results

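The genes described are 31 enzymes, transporters and regulators of glucose breakdown: glucose carriers, the enzymes of glycolysis, lactate dehydrogenase and the carriers of lactate, the gate into the mitochondrion at pyruvate dehydrogenase, and the pentose phosphate branch. They were chosen by exact gene symbol. All 31 were listed in at least 1 of the deposited gene tables, out of 28459 symbols in all. The microglial table held 29 of them, without Aldoa and Pgk1, and both astrocyte tables held 29, without Gapdh and Pgd, which left 27 that could be compared between the cell types. Polyadenylated RNA was counted in 28 libraries of primary glia from the cortex of newborn Wistar rats. Mixed cultures were kept for 10 days, and microglia were then shaken off and enriched with magnetic beads against CD11b/c. Cells received recombinant HERV-W ENV (1 µg/ml), the envelope protein of a retrovirus family carried in the human genome, with its buffer as the vehicle, or bacterial lipopolysaccharide (LPS, 100 ng/ml) with H2O as the vehicle, in medium with 10% fetal calf serum. Microglia were treated 1 day and astrocytes 3 days after isolation, and no source used here states how long the stimulation lasted. The 4 microglial groups (buffer, ENV, H2O, LPS) had 3 libraries each and the 4 astrocyte groups had 4 each. Nothing in the labels says whether replicates came from separate cultures or litters, so the spread behind the p-values is that between libraries and could be technical.

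Glycolysis splits glucose into pyruvate in the cytosol and yields ATP without oxygen. Lactate dehydrogenase turns pyruvate into lactate, which leaves the cell through monocarboxylate transporters, while pyruvate dehydrogenase sends pyruvate into the mitochondrion and is switched off by its kinases. Macrophages and microglia that meet bacterial products are known for raising glycolysis, astrocytes are known for making and exporting lactate, and the pentose phosphate pathway supplies NADPH and ribose.

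Library totals ran from 23742228 to 42724111 counts, and levels are given as CPM, the count scaled to a library total of 1e+06, in the order of the replicate numbers. A count of 0 would allow up to 0.0702 to 0.126 CPM, from 3 counts, and such limits cover counting error only. Microglial libraries held 6182 to 13860 CPM of 14 microglia and macrophage markers, against 157.1 to 965.9 CPM in astrocyte libraries. The 11 astrocyte markers summed to 2554 to 10490 CPM in astrocytes and 21.4 to 280.6 CPM in microglia. Markers of fibroblasts and mural cells were high in astrocyte cultures, at 2737 to 10940 CPM with buffer and 1633 to 3385 CPM with ENV, and at 2898 to 10270 CPM with H2O and 1912 to 3528 CPM with LPS. Oligodendrocyte markers in microglia stood at 303.2 to 335.8 CPM with buffer and 81.3 to 168.6 CPM with ENV. In the LPS set they stood at 16.7, 17.1 and 178.6 CPM with H2O and 5.04, 5.43 and 35.2 CPM with LPS, so replicate 3 stood apart from replicates 1 and 2. In the astrocyte LPS set, replicates 1 and 2 held fewer astrocyte marker counts (5504 and 6322 CPM with H2O, 2554 and 2716 with LPS) than replicates 3 and 4 (8662 and 10420 with H2O, 7069 and 7665 with LPS). In astrocyte markers, astrocyte buffer replicates 3 and 4 (8986 and 10490 CPM) were close to the H2O libraries of the same number. Buffer replicates 1 and 2 (8574 and 8923 CPM) were not. The labels do not say whether the ENV and LPS sets share cultures, so the 2 astrocyte responses may not be independent. In such bulk samples fewer cells of a type and less RNA per cell cannot be told apart.

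Most of the measured pathway genes were called higher in microglia with either treatment. In astrocytes the share of members called (17.2% with ENV, 3.45% with LPS) was near that of all genes tested. It was above that share with the replicate number as a block. With ENV, 21 of the 29 measured members were higher in microglia and 1, Ldhb, was lower, at an adjusted p under 0.05, while 30.9% of all genes tested were called (16.2% higher, 14.7% lower). Their median log2 change was 1.22, beside -0.03 over all genes. With LPS, 16 of 29 were higher and 0 lower, beside 29.8% of all genes (16% higher, 13.8% lower), with a median log2 change of 1.20 against -0.02. The 16 called with LPS were all among the 21 called with ENV. In astrocytes, ENV raised 3 members (Eno2, Pkm and Slc16a3) and lowered 2 (Slc2a1 and Pdk1) of 29, beside 17.9% of all genes (9.52% higher, 8.35% lower). LPS lowered 1 (Slc2a1) and raised 0, beside 5.34% (2.64% higher, 2.69% lower). Median log2 changes of the members in astrocytes were 0.12 and 0.05. With the replicate number as a block, 7 members were higher and 6 lower with ENV in astrocytes, and 2 higher and 6 lower with LPS, where 29.1 and 17.7% of all genes were called. With replicate 3 of H2O and LPS left out, 17 members were higher and 1 lower with LPS in microglia, beside 34.9% of all genes called. In astrocytes with LPS, replicates 1 and 2 alone gave 1 higher and 7 lower, beside 20.1% of all genes called, and replicates 3 and 4 alone gave 2 higher and 0 lower, a share near the 5.96% of all genes. Counted by groups that did not overlap in CPM, 21 members were wholly above buffer and 3 wholly below it with ENV in microglia, beside 53.9% of all genes (16.7% above, 37.2% below). With LPS, 15 were above and 2 below H2O, beside 55.4% (13.8% above, 41.5% below). In astrocytes 4 were above and 3 below with ENV, beside 22.8% (12.2% above, 10.6% below), and 0 above and 4 below with LPS, beside 14.9% (7.02% above, 7.85% below).

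Together the members took up 0.634, 0.631 and 0.669% of all counts in microglia with buffer and 1.62, 1.503 and 1.66% with ENV. They took up 0.788, 0.606 and 0.683% with H2O and 2.07, 1.54 and 1.599% with LPS. Every treated microglial library was thus above every vehicle library in this share. In astrocytes it lay between 0.823 and 0.939% with the vehicles and between 0.764 and 0.896% with the treatments. The astrocyte share is without Gapdh and Pgd and the microglial share without Aldoa and Pgk1, so their levels cannot be compared between the cell types. The share of mitochondrially encoded counts in microglia moved the other way, from 2.49 to 3.55% with buffer to 1.57 to 2.28% with ENV, and from 2.74 to 2.97% with H2O to 1.39 to 1.54% with LPS. Its part in the rise of the members was not tested.

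**Figure D1:**
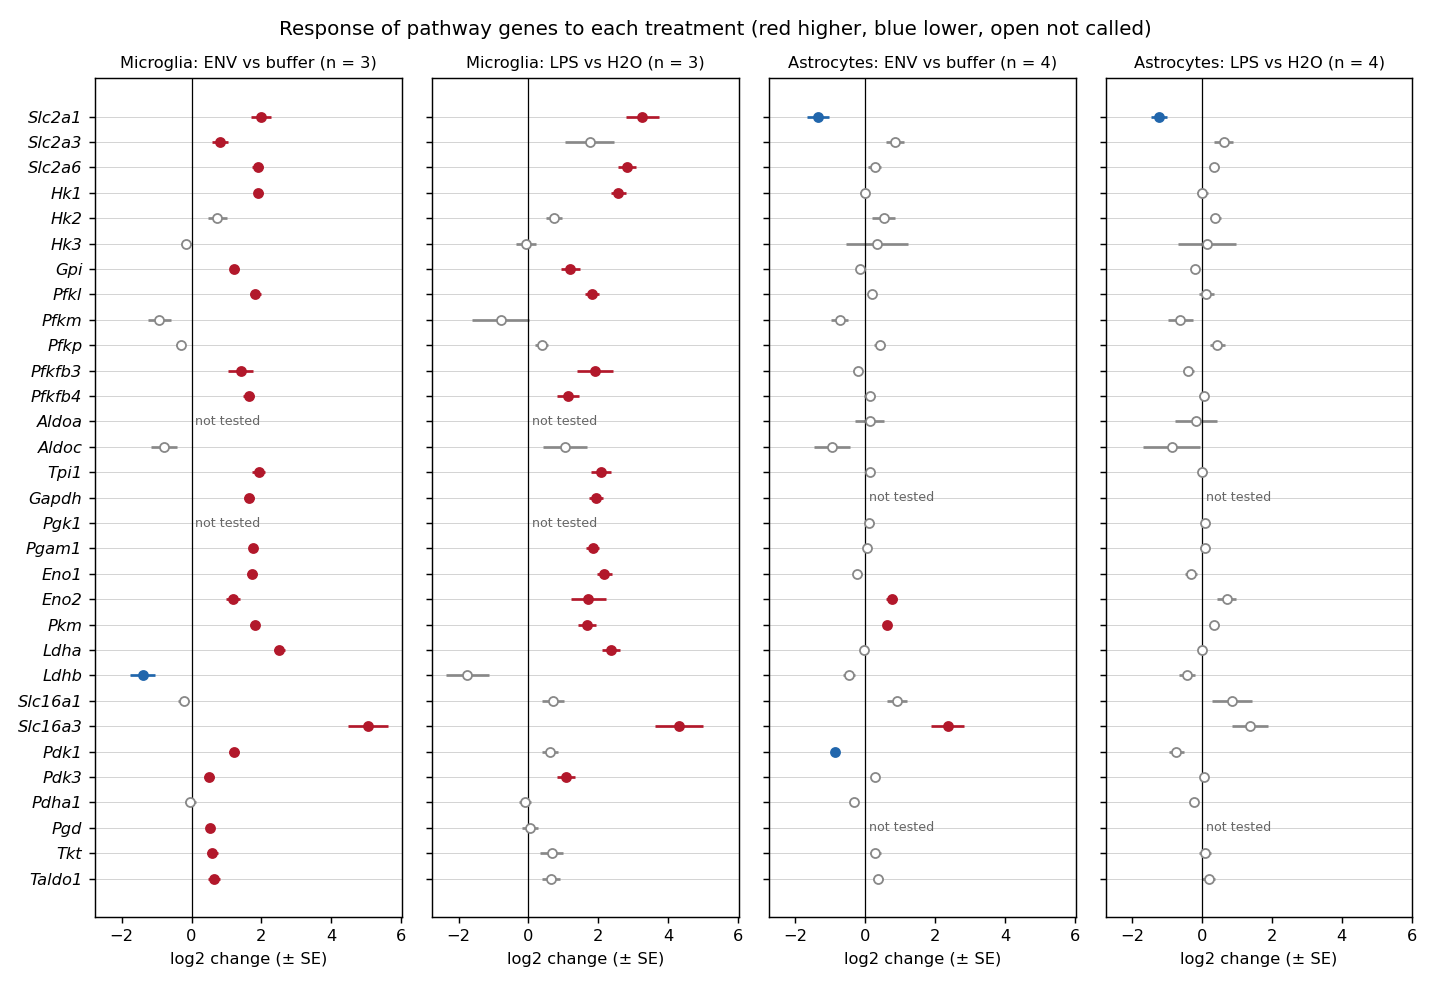
Log2 change of each pathway gene against its own vehicle, with the standard error, in the order of the pathway from glucose uptake at the top to the pentose phosphate branch at the bottom. Filled red points passed an adjusted p under 0.05 as higher, filled blue points as lower, and open points did not pass. The microglial panels hold 21 and 16 red points, and the astrocyte panels 3 and 0.

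Direction here is relative to the median gene under TMM scaling. Scaled by library totals alone, the median gene stood at -0.23 in the microglial ENV comparison and -0.33 in the LPS comparison. The members' medians were then 1.02 and 0.88, with 16 higher and 3 lower with ENV and 13 higher and 1 lower with LPS. The share of higher genes among all genes called was 52.5% (ENV) and 53.7% (LPS) under TMM, 34.8% and 35.8% under upper quartile scaling, and 31.5% and 25.9% under library totals. With ENV in astrocytes it was 53.3% under TMM and 41.6% under upper quartile scaling. The CPM values below are scaled by library totals, so they show a smaller rise in microglia than the log2 changes beside them.

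Promoters were read because so many members moved together in microglia while Slc2a1 and Pdk1 moved in opposite directions in the cell types with ENV. The 250 bases before the annotated start site are from RefSeq (build GRCr8), where 29 of the 31 members had an entry, the first listed being used where there were several. ACGTG and GCGTG, the core letters of the element bound by hypoxia-inducible factors, were searched on both strands. The letters CACGTG, the E-box read by Myc and related factors, hold ACGTG on both strands and so overlap with it. At least 1 of ACGTG and GCGTG was found in 19 of 29 members and in 36.7% of all 33469 windows of the same length. ACGTG alone was in 11 members and 16.6% of windows, GCGTG in 15 and 25.9%, and CACGTG in 3 (Pfkfb3, Ldha and Slc16a1) and 5.59%. Among members called higher with ENV in microglia, Slc2a1, Slc2a6, Pfkl, Pfkfb3, Gapdh, Pgam1, Eno1, Eno2, Ldha, Pdk1, Pdk3 and Taldo1 held ACGTG or GCGTG. Hk1, Gpi, Pfkfb4, Tpi1, Pkm, Slc16a3, Pgd and Tkt, also called higher there, held neither. Of those not called higher there, Hk3, Pfkm, Pfkp, Aldoc, Ldhb, Slc16a1 and Pdha1 held ACGTG or GCGTG, and Hk2 did not. A link of these letters to the changes was not tested. The windows of 4 members that the results turn on are shown, on the plus strand of the genome, which is also the strand of each gene. Capitals mark the matches, written CACGT or CACGC where the match is on the opposite strand. The windows are Ldha at chr1:106507842-106508091, Slc2a1 at chr5:138002272-138002521, Pdk1 at chr3:77113264-77113513 and Slc16a3 at chr10:106712078-106712327.
Ldha: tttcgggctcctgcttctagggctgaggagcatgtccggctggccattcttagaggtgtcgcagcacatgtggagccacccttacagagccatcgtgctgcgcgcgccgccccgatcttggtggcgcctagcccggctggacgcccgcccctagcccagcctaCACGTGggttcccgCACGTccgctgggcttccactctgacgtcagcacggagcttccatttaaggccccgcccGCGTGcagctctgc
Slc2a1: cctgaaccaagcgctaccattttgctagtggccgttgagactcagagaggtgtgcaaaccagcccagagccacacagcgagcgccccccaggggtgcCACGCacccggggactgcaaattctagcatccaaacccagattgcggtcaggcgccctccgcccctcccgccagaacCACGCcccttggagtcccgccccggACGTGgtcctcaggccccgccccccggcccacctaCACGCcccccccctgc
Pdk1: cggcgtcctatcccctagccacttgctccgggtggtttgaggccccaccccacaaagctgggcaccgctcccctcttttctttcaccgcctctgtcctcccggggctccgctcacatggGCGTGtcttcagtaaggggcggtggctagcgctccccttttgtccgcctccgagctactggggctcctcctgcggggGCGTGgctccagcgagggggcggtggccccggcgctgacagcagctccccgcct
Slc16a3: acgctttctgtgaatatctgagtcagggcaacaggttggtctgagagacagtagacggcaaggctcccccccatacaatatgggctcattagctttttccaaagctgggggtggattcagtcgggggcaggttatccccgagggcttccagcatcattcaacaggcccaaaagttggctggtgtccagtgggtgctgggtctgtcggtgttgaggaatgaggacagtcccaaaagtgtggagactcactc
Ldha has 3 ACGTG matches, of which a pair forms the CACGTG at -87, and 1 GCGTG at -14 from the start site. Slc2a1 has 1 ACGTG and 3 GCGTG, Pdk1 has 2 GCGTG at -131 and -54, and the window of Slc16a3 holds none of these letters. A match is a run of letters and not a measured binding site.

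Glucose enters the cell through the GLUT carriers. Slc2a1 (GLUT1), the widely expressed carrier, rose in microglia and fell in astrocytes with both treatments. In microglia it stood at 94.5, 87.3 and 57.5 CPM with buffer and 370.4, 224 and 228 with ENV, and at 97.7, 83.7 and 42.5 CPM with H2O and 639, 326 and 772 with LPS. Every treated library was above every vehicle library, with log2 changes of 2.00 ± 0.29, adjusted p = 0.00294 with ENV and 3.26 ± 0.48, adjusted p = 0.00659 with LPS. In astrocytes it stood at 715, 849.5, 764 and 351 CPM with buffer and 256, 364, 215 and 213 with ENV, and at 574, 659, 693 and 361 CPM with H2O and 250.2, 269.99, 241 and 204 with LPS. The LPS and H2O groups did not overlap, while the highest ENV library, replicate 2, was just above buffer replicate 4. The log2 changes were -1.35 ± 0.31, adjusted p = 0.0197 and -1.24 ± 0.22, adjusted p = 0.0199. These 2 calls were lost without any 1 of buffer replicates 1 and 3 and ENV replicates 1 and 3 (adjusted p 0.0514 to 0.0591), and without any 1 of H2O replicates 1, 2 and 3 and LPS replicates 1, 3 and 4 (0.0503 to 0.0699). The ENV call was also lost in replicates 1 and 2 alone (-1.40, adjusted p = 0.0626) and in replicates 3 and 4 alone (-1.33, adjusted p = 0.134). The LPS call was lost in replicates 3 and 4 alone (-1.21, adjusted p = 0.136). With the replicate number as a block both calls held, at adjusted p = 0.00417 and 0.00501, and Slc2a1 was lower in the treated library of all 4 pairs in both sets. Fibroblast and mural cell markers were also lowest, among the vehicle libraries of each set, in replicate 4, the one with the least Slc2a1, at 2737 CPM with buffer and 2898 CPM with H2O, and their part in the fall of Slc2a1 was not tested.

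Slc2a6 (GLUT6), a carrier of inner cell membranes, stood in microglia at 13.6, 16.6 and 16.9 CPM with buffer and 57.4, 50.4 and 43.7 with ENV, and at 15.9, 16.6 and 12.3 CPM with H2O and 79.2, 66.1 and 111 with LPS. Each treated group was wholly above its vehicle, by a log2 change of 1.89 ± 0.17, adjusted p = 0.000467 and 2.82 ± 0.26, adjusted p = 0.0017. Astrocytes held 21.05, 18.4, 19.7 and 21.7 CPM with buffer and 23.4, 18.9, 19.8 and 34.3 with ENV, and 20.6, 19.5, 19.4 and 21.7 CPM with H2O and 23.8, 27.1, 19.9 and 30.6 with LPS, with overlapping groups and log2 changes of 0.26 ± 0.18 and 0.34 ± 0.14 that did not pass. Slc2a3 (GLUT3), the carrier best known from neurons, was sparse in microglia, at 0.328 to 4.67 CPM over all 12 libraries, and higher with ENV by 0.82 ± 0.24, adjusted p = 0.0368. That call was lost without any 1 of buffer replicates 1 and 2 and ENV replicates 1, 2 and 3 (adjusted p 0.052 to 0.117). In astrocytes Slc2a3 ran from 31.7 to 103 CPM, and its ENV change of 0.84 ± 0.25, adjusted p = 0.0531, passed only with the replicate block (0.0192), by DESeq2 (0.0142) or without ENV replicate 2 (0.0251).

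Hexokinases trap glucose as glucose 6-phosphate. Of the 3 measured, only Hk1, the form that is widespread in brain, passed the test in microglia. It stood at 36.8, 42.4 and 37.5 CPM with buffer and 128, 139.9 and 115 with ENV, and at 27.4, 25.01 and 39.6 CPM with H2O and 136, 133 and 171 with LPS. All treated libraries lay above all vehicle libraries, with log2 changes of 1.92 ± 0.12, adjusted p = 0.000183 and 2.57 ± 0.21, adjusted p = 0.00136. In astrocytes Hk1 stood at 346, 369.8, 333 and 278 CPM with buffer and 317, 308, 360.2 and 321 with ENV, and at 285, 355, 337 and 279 CPM with H2O and 269, 285, 349.7 and 342 with LPS. Those groups overlapped and the changes were -0.01 ± 0.13 and 0.00 ± 0.15, so that treated microglia remained below every astrocyte library in CPM.

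Hk2, the inducible hexokinase, ran from 50.5 to 138 CPM in microglia, with changes of 0.74 ± 0.28, adjusted p = 0.084 with ENV and 0.73 ± 0.23, adjusted p = 0.0553 with LPS. Both passed with the replicate number as a block, at adjusted p = 0.0362 and 0.0224. In astrocytes Hk2 stood at 24.3, 10.5, 18.6 and 25.99 CPM with buffer and 40.4, 17.2, 21.2 and 33.9 with ENV, and at 19.7, 19.9, 20.2 and 24.6 CPM with H2O and 27.7, 24.2, 21.6 and 34.01 with LPS. The groups overlapped, but Hk2 was higher in the treated library of all 4 pairs of each set. The changes were 0.53 ± 0.33, adjusted p = 0.309 and 0.37 ± 0.16, adjusted p = 0.225, and the ENV change passed with the replicate block (0.0163). Hk3, a hexokinase of myeloid cells, ran from 155 to 364 CPM in microglia and changed by -0.14 ± 0.16 and -0.06 ± 0.29, neither of which passed. The log2 ratio of Hk3 to Hk1 counts within a library therefore moved from 2.67 to 3.26 with buffer to 0.86 to 1.14 with ENV, and from 2.89 to 3.70 with H2O to -0.15 to 1.08 with LPS. In astrocyte libraries Hk3 was at 8.78, 0.9201, 6.18 and 18.1 CPM with buffer and 13.4, 0.943, 9.82 and 17.6 with ENV, and at 4.104, 2.05, 7.11 and 17.7 CPM with H2O and 2.86, 1.902, 10.04 and 17.6 with LPS. The lowest 2 of these libraries, buffer and ENV replicate 2, also held the fewest microglial markers of their groups (229.8 and 157.1 CPM).

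Gpi, which turns glucose 6-phosphate into fructose 6-phosphate, rose in microglia from 288 to 336 CPM with buffer to 585 to 695 CPM with ENV. The single libraries stood at 312, 288 and 336 CPM with buffer and 626, 585 and 695 with ENV, and at 455, 349 and 378 CPM with H2O and 979, 643 and 556 with LPS. The groups did not overlap in either set, and the log2 changes were 1.22 ± 0.14, adjusted p = 0.00106 and 1.20 ± 0.27, adjusted p = 0.0221. The LPS call was lost without any 1 of H2O replicates 1, 2 and 3 and LPS replicate 2 (adjusted p 0.0617 to 0.0897). Astrocytes held 289, 267, 302 and 307 CPM with buffer and 254, 250.001, 266 and 267 with ENV, and 278, 272, 299 and 321 CPM with H2O and 224, 232, 263 and 269.6 with LPS. There each treated group lay wholly below its vehicle, by -0.15 ± 0.07, adjusted p = 0.173 and -0.22 ± 0.11, adjusted p = 0.298, which did not pass.

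Phosphofructokinase is the main control point of glycolysis, and 1 of its 3 subunit genes rose in microglia. Pfkl, the liver-type subunit, stood in microglia at 85.05, 70.7 and 84.1 CPM with buffer and 242, 216 and 285 with ENV, and at 101, 100.05 and 84.7 CPM with H2O and 314, 223 and 282 with LPS. The treated libraries were all above the vehicles, with changes of 1.83 ± 0.16, adjusted p = 0.00045 and 1.83 ± 0.20, adjusted p = 0.00257. Astrocyte libraries gave 145, 144, 169 and 186 CPM with buffer and 167, 167, 168 and 226 with ENV, and 154, 136, 171 and 194 CPM with H2O and 136, 139, 185 and 239 with LPS, and the overlapping groups differed by 0.19 ± 0.12 and 0.12 ± 0.21. Pfkp, the platelet-type subunit, stood in microglia at 21.7, 27.2 and 24.8 CPM with buffer and 17.4, 18.7 and 15.5 with ENV, and at 16.02, 20.8 and 24.7 CPM with H2O and 20.6, 19.5 and 24.4 with LPS. In astrocytes it stood at 36.96, 31.9, 31.96 and 24.7 CPM with buffer and 48.5, 42.2, 41.9 and 33.4 with ENV, and at 37.1, 37.7, 31.3 and 22.02 CPM with H2O and 46.2, 51.3, 42.1 and 32.7 with LPS. The ENV group was below buffer in microglia in every library, and neither microglial change passed under TMM (-0.31 ± 0.14 and 0.38 ± 0.19). The microglial ENV change passed as lower under upper quartile scaling (-0.49, adjusted p = 0.0426) and under library totals (-0.51, adjusted p = 0.0286). The astrocyte changes of Pfkp, 0.41 ± 0.16 and 0.44 ± 0.21, passed with the replicate block (adjusted p = 0.00926 and 0.0225).

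Pfkm, the muscle-type subunit, ran from 1.29 to 22.4 CPM in microglia and from 85.9 to 318 CPM in astrocytes. Its changes were -0.92 ± 0.33, adjusted p = 0.0707 with ENV in microglia and -0.74 ± 0.24, adjusted p = 0.0701 with ENV in astrocytes, with the replicate block 0.00619 and 0.00114. With LPS in astrocytes it changed by -0.63 ± 0.36, adjusted p = 0.372, with the replicate block 0.00449. In microglia Pfkm was highest with buffer, at 14.1 to 22.4 CPM, and the buffer libraries also held the most oligodendrocyte markers. With H2O it stood at 1.29, 1.38 and 9.53 CPM, beside astrocyte marker sums of 61.8, 75.0 and 280.6 CPM. The part of such cells in its level was not tested.

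The Pfkfb enzymes set the level of fructose 2,6-bisphosphate, the strongest activator of phosphofructokinase. Pfkfb3, the inducible form with the highest kinase activity, stood in microglia at 83.4, 81.1 and 35.6 CPM with buffer and 198, 114 and 142 with ENV, and at 107, 103 and 65.1 CPM with H2O and 480.1, 196 and 148 with LPS. The treated groups were above their vehicles in every library, by 1.40 ± 0.36, adjusted p = 0.0251 and 1.90 ± 0.51, adjusted p = 0.036. These calls were lost without any 1 of buffer replicate 2 and ENV replicates 1 and 3 (adjusted p 0.0537 to 0.082), and without any 1 of H2O replicates 1, 2 and 3 and LPS replicates 1 and 2 (0.0527 to 0.107). In astrocytes Pfkfb3 stood at 516, 575, 575 and 517 CPM with buffer and 437, 496, 533 and 392 with ENV, and at 491, 509, 581 and 506 CPM with H2O and 336, 334, 503 and 389 with LPS. The LPS change of -0.40 ± 0.16, adjusted p = 0.216, passed with the replicate block (0.0419) and in replicates 1 and 2 alone (-0.61, adjusted p = 0.00396). Pfkfb4, a second such enzyme, stood in microglia at 17.8, 17.3 and 16.8 CPM with buffer and 52.2, 37.4 and 50.4 with ENV, and at 20.01, 24.96 and 17.7 CPM with H2O and 41.9, 47.4 and 22.1 with LPS. LPS replicate 3 lay among the H2O libraries, and the changes were 1.64 ± 0.17, adjusted p = 0.000779 and 1.14 ± 0.31, adjusted p = 0.038. The LPS call was lost without any 1 of H2O replicates 1, 2 and 3 and LPS replicates 1 and 2 (adjusted p 0.082 to 0.136). Astrocytes held 9.85, 7.64, 11.3 and 12.1 CPM with buffer and 11.1, 9.18, 10.99 and 12.7 with ENV, and 9.65, 11.1, 10.8 and 13.3 CPM with H2O and 11.3, 10.4, 12.3 and 11.3 with LPS, with changes of 0.12 ± 0.16 and 0.04 ± 0.14.

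In the lower steps of glycolysis, Tpi1, Gapdh, Pgam1, Eno1 and Pkm rose in microglia by log2 changes of 1.65 to 1.92 with ENV and 1.67 to 2.17 with LPS. Aldolase cleaves fructose 1,6-bisphosphate. The symbol Aldoa was listed in astrocytes alone, at 0.0842 to 1.198 CPM, and passed in neither comparison. The microglial table has numbered copies in its place, Aldoa_1 and Aldoa_2, outside the exact-symbol rule. Aldoa_1 stood at 1087, 1022 and 1212 CPM with buffer and 2098, 1946 and 2072 with ENV, and at 1439, 1244 and 1219 CPM with H2O and 2773, 2127 and 2581 with LPS. Aldoa_2 had group means of only 0.967 to 1.65 CPM. No source used here says which copy the astrocyte symbol counts, so its low level cannot be read as that of aldolase A as a whole. Because the tables list different symbols, aldolase A levels could not be compared between the cell types. Aldoc, the brain form of aldolase and itself a marker of astrocytes, ran from 62.9 to 1216 CPM in astrocytes and from 1.16 to 22.1 CPM in microglia. Its microglial ENV change of -0.78 ± 0.37, adjusted p = 0.152, passed with the replicate block (0.00643) and was downward in all 3 pairs. The microglial LPS change of 1.05 ± 0.62, adjusted p = 0.243, passed without H2O replicate 3 (1.99, adjusted p = 0.0326). In astrocytes it stood at 366, 513, 646 and 1170.2 CPM with buffer and 115, 253, 370.1 and 624 with ENV, and at 206, 293, 646 and 1216 CPM with H2O and 62.9, 104, 405 and 669 with LPS. The treated library was the lower one in all 4 pairs of each set, and the changes of -0.96 ± 0.52 and -0.87 ± 0.82 passed only with the block (adjusted p = 0.00483 and 0.0206), except that the LPS change also passed in replicates 1 and 2 alone (0.0489). The sum of astrocyte markers was lower over the same pairs, at 8574 to 10490 CPM with buffer and 4510 to 7732 CPM with ENV. Its part in the values of Aldoc was not tested.

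Tpi1, which interconverts the triose phosphates, stood in microglia at 176, 164 and 209.9 CPM with buffer and 597, 506 and 717 with ENV, and at 243, 192 and 162 CPM with H2O and 884, 548 and 596 with LPS. It was higher in all treated libraries, by 1.92 ± 0.18, adjusted p = 0.000629 and 2.08 ± 0.29, adjusted p = 0.00555. Astrocytes held 423, 377, 405 and 409 CPM with buffer and 484, 470.2, 362 and 425 with ENV, and 483, 451, 401 and 435 CPM with H2O and 464, 378, 481 and 432 with LPS, with changes of 0.12 ± 0.10 and 0.01 ± 0.12. Gapdh, the NADH-forming dehydrogenase that is often used as a reference transcript, was among the genes that rose. It stood at 1299.8, 1323 and 1582 CPM with buffer and 3885, 3698 and 3926 with ENV, and at 1366, 1081 and 1259 CPM with H2O and 4312, 3569 and 3632 with LPS. No treated library overlapped with a vehicle library, and the changes were 1.65 ± 0.15, adjusted p = 0.000483 and 1.95 ± 0.20, adjusted p = 0.00227. Pgk1, the first ATP-forming enzyme, was listed in astrocytes, at 414 to 594 CPM, and changed by 0.11 ± 0.13 and 0.09 ± 0.13, which did not pass.

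Pgam1 moves the phosphate group of phosphoglycerate. In microglia it stood at 233, 226 and 235 CPM with buffer and 699.7, 630.4 and 712 with ENV, and at 280.3, 243 and 228 CPM with H2O and 809, 648 and 708 with LPS. The groups were apart in both sets, by 1.76 ± 0.12, adjusted p = 0.00024 and 1.84 ± 0.19, adjusted p = 0.00225. In astrocytes the libraries gave 429, 411, 428 and 386 CPM with buffer and 472, 487, 354 and 384 with ENV, and 490.4, 494, 413 and 401 CPM with H2O and 521, 558, 426 and 382 with LPS, and the changes were 0.05 ± 0.12 and 0.08 ± 0.15. Eno1, the general enolase, stood in microglia at 617, 665 and 761 CPM with buffer and 1928, 1911 and 2054 with ENV, and at 705, 558 and 577 CPM with H2O and 2392, 1855 and 2432 with LPS. It rose by 1.73 ± 0.14, adjusted p = 0.000338 and 2.17 ± 0.21, adjusted p = 0.00214, with no overlap. In astrocytes Eno1 stood at 1046, 1013, 1106 and 1162 CPM with buffer and 1030.4, 1038, 878 and 712 with ENV, and at 1298, 1232, 1058 and 1172 CPM with H2O and 1071, 1169, 863 and 698 with LPS, with changes of -0.23 ± 0.14 and -0.31 ± 0.17 that did not pass.

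Eno2, the enolase named after neurons, was called higher in both cell types with ENV. Microglia held 81.4, 66.9 and 54.5 CPM with buffer and 162, 124 and 115 with ENV, and 87.2, 113 and 37.1 CPM with H2O and 311, 165 and 155 with LPS. The changes were 1.19 ± 0.21, adjusted p = 0.00651 and 1.72 ± 0.50, adjusted p = 0.045, the latter lost without any 1 of H2O replicates 1, 2 and 3 and LPS replicates 1 and 2 (adjusted p 0.0709 to 0.126). Astrocytes held 57.4, 69.2, 79.8 and 69.4 CPM with buffer and 102, 94.2, 140.3 and 125 with ENV, and 48.6, 63.8, 80.8 and 75.1 CPM with H2O and 72.7, 78.8, 154 and 122 with LPS. Every ENV library was above every buffer library, by 0.76 ± 0.15, adjusted p = 0.0127, a call lost in replicates 1 and 2 alone (0.57, adjusted p = 0.0974). The LPS change of 0.70 ± 0.28, adjusted p = 0.199, passed with the replicate block (0.0207). The sum of the 8 neuronal markers in the astrocyte cultures was lower with ENV, at 35.0 to 69.6 CPM, than with buffer, at 120.2 to 175.1 CPM. Only 4 of these markers were tested, with 0 higher and 2 lower. The part of such cells in the level of Eno2 was not tested.

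Pkm, the pyruvate kinase of most tissues, also rose in both cell types with ENV. In microglia it stood at 1065, 1014 and 1072 CPM with buffer and 3319, 3007 and 3259.9 with ENV, and at 1685, 1131 and 1451 CPM with H2O and 4482, 3361 and 3103 with LPS. These groups did not overlap, and the changes were 1.81 ± 0.13, adjusted p = 0.000281 and 1.67 ± 0.26, adjusted p = 0.0072. In astrocytes it stood at 973, 931, 1076 and 941 CPM with buffer and 1704, 1327, 1489 and 1482 with ENV, and at 1216, 1108, 1066 and 968 CPM with H2O and 1312, 1161, 1526 and 1438 with LPS. All ENV libraries were above all buffer libraries, by 0.63 ± 0.12, adjusted p = 0.00866, while the LPS change of 0.34 ± 0.14, adjusted p = 0.229, did not pass. The ENV call was lost in replicates 1 and 2 alone (0.61, adjusted p = 0.111) and in replicates 3 and 4 alone (0.62, adjusted p = 0.151). The splice forms of Pkm are not separated in gene counts.

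**Figure D2:**
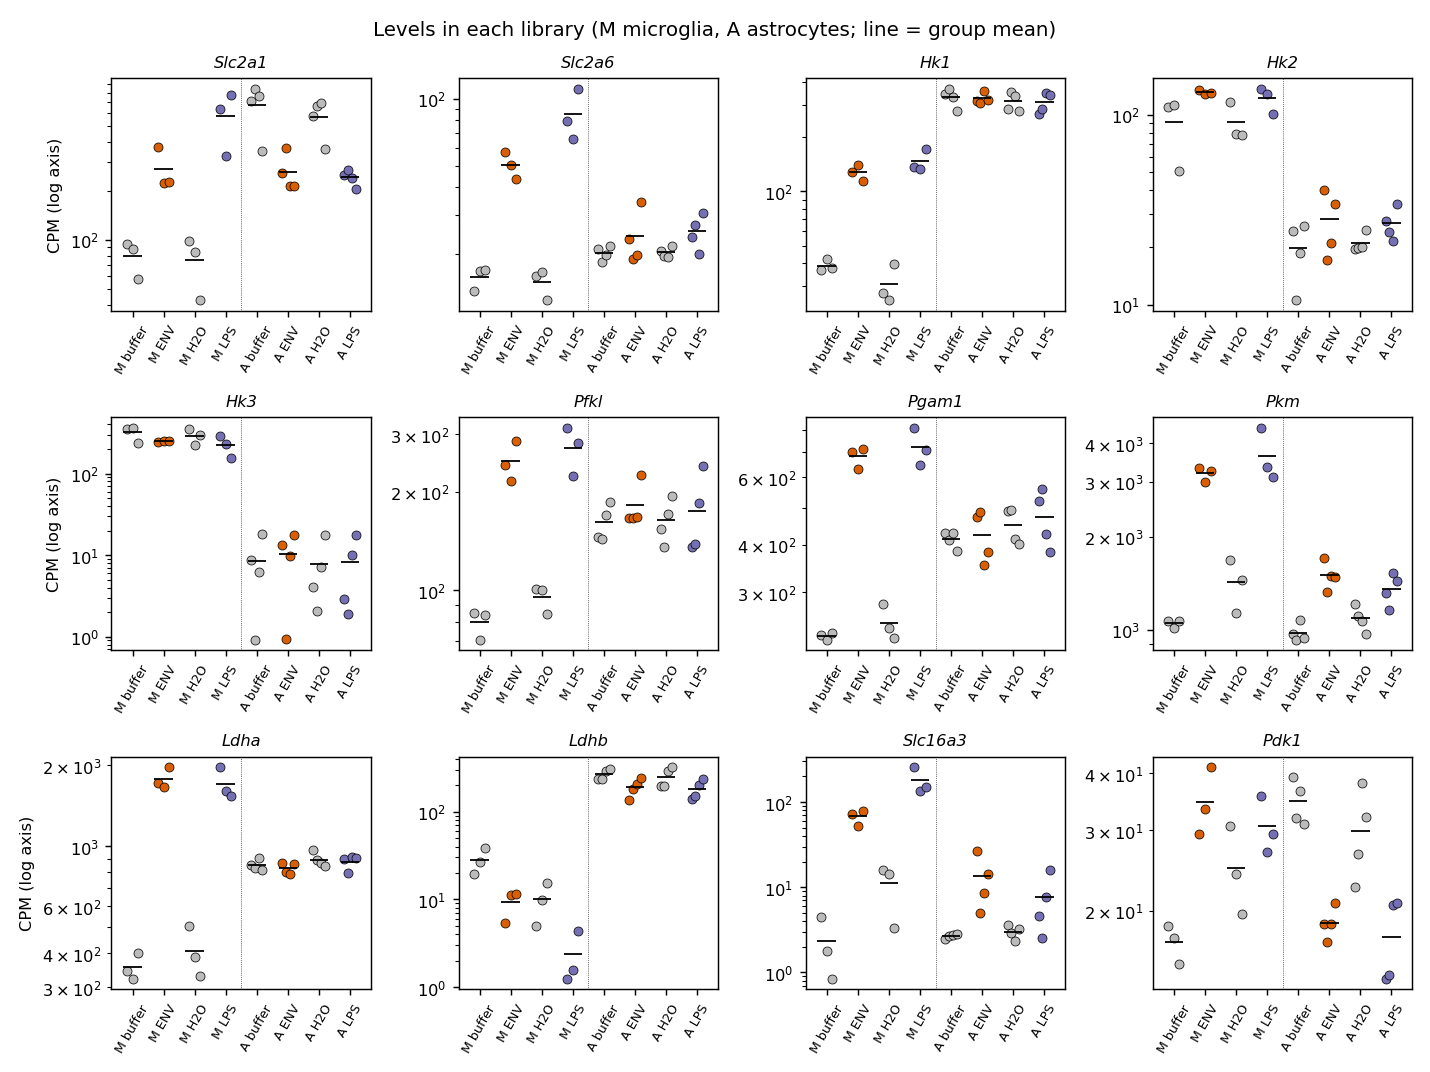
Levels in CPM, on log axes, for 12 pathway genes in each of the 28 libraries. M is microglia, A is astrocytes, points are libraries and lines are group means. Ldha runs from 322 to 507 CPM in vehicle microglia and from 1535 to 1970 CPM in treated microglia, with all 16 astrocyte libraries in between.

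Lactate dehydrogenase is built from the A and B subunits, of which Ldha is known for the form that makes lactate and Ldhb for the form that uses it. The 2 genes moved in opposite directions in microglia with ENV. Ldha stood at 345, 322 and 403 CPM with buffer and 1712, 1655 and 1969 with ENV, and at 507, 386 and 331 CPM with H2O and 1969.7, 1611 and 1535 with LPS. Treated libraries were all above the vehicles, by 2.52 ± 0.16, adjusted p = 0.000184 and 2.37 ± 0.25, adjusted p = 0.00239. Ldhb stood at 19.2, 26.5 and 38.9 CPM with buffer and 5.41, 11.3 and 11.5 with ENV, and at 4.995, 9.83 and 15.4 CPM with H2O and 1.24, 1.57 and 4.39 with LPS. Here every treated library was below every vehicle library, by -1.40 ± 0.35, adjusted p = 0.0233 and -1.75 ± 0.61, adjusted p = 0.0748. The ENV call was lost without any 1 of buffer replicate 2 and ENV replicates 1 and 2 (adjusted p 0.054 to 0.0573), and the LPS change passed with the replicate block (0.0135) and with replicate 3 of H2O and LPS left out (0.0142). The sums of oligodendrocyte and astrocyte markers were lower in the treated library of every pair as well, and their part in the fall of Ldhb was not tested. The lower astrocyte sum did not hold over the list. With ENV, 9 astrocyte markers were tested, 0 higher and 1 lower, with a median log2 change of 0.737. With LPS, 4 were tested and 0 called, with a median of -0.0449. The oligodendrocyte markers had medians of -1.11 (8 tested, 0 higher, 3 lower) with ENV and -1.72 (7 tested, 0 higher, 1 lower) with LPS.

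The log2 ratio of Ldha to Ldhb counts within a library moved from 3.37 to 4.16 with buffer to 7.198 to 8.30 with ENV in microglia, and from 4.43 to 6.66 with H2O to 8.45 to 10.62 with LPS. In astrocytes the ratio was 1.40 to 1.88 with buffer and 1.85 to 2.67 with ENV, and 1.39 to 2.31 with H2O and 1.93 to 2.68 with LPS. Astrocyte Ldha stood at 855, 830.04, 907 and 817 CPM with buffer and 869.8, 801, 787 and 861 with ENV, and at 966, 892, 868 and 844 CPM with H2O and 895, 794, 914 and 904 with LPS. Those groups overlapped, with changes of -0.03 ± 0.09 (95% interval -0.24 to 0.19) and -0.01 ± 0.11 (95% interval -0.27 to 0.25). Astrocyte Ldhb stood at 233, 233, 292 and 309 CPM with buffer and 137, 179, 206 and 239 with ENV, and at 195, 197, 292 and 321 CPM with H2O and 139.6, 151, 204 and 237 with LPS. It was lower in the treated library of all 4 pairs of each set, by -0.47 ± 0.17, adjusted p = 0.0988 and -0.43 ± 0.23, adjusted p = 0.35, and passed with the replicate block (0.0117 and 0.0103).

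Lactate leaves through the monocarboxylate transporters. Slc16a3 (MCT4), the exporter of glycolytic cells, had the highest log2 change of all members in microglia. It stood at 4.49, 1.79 and 0.842 CPM with buffer and 72.97, 52.02 and 78.2 with ENV, and at 16.1, 14.2 and 3.37 CPM with H2O and 257, 136 and 149 with LPS. The lowest treated library of each set was over the highest vehicle library, and the changes were 5.05 ± 0.57, adjusted p = 0.00121 and 4.31 ± 0.68, adjusted p = 0.00778. In astrocytes it stood at 2.48, 2.69, 2.78 and 2.83 CPM with buffer and 26.8, 4.97, 8.68 and 14.4 with ENV, and at 3.58, 2.904, 2.34 and 3.23 CPM with H2O and 4.59, 2.51, 7.6003 and 15.7 with LPS. The ENV group was above buffer without overlap, by 2.35 ± 0.47, adjusted p = 0.0122, and LPS replicate 2 lay among the H2O libraries (1.37 ± 0.52, adjusted p = 0.184). The ENV call was lost in replicates 1 and 2 alone (2.55, adjusted p = 0.167).

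Slc16a1 (MCT1), the carrier that moves lactate either way, ran from 37.6 to 90.9 CPM in microglia and changed by -0.22 ± 0.16 and 0.70 ± 0.31, which did not pass. In astrocytes it stood at 291, 289, 325 and 429 CPM with buffer and 503, 333, 730.1 and 891 with ENV, and at 209, 194, 334 and 413 CPM with H2O and 221, 159.5, 791 and 845 with LPS. Replicates 3 and 4 were far higher with either treatment than with its vehicle, while replicates 1 and 2 with LPS lay within the H2O range or below it. Over all libraries the changes were 0.90 ± 0.29, adjusted p = 0.0646 and 0.85 ± 0.57, adjusted p = 0.452. The ENV change passed with the replicate block (0.0225), and replicates 3 and 4 alone passed with ENV (1.17, adjusted p = 0.0478) and LPS (1.18, adjusted p = 0.0321). The ratio of Slc16a3 to Slc16a1 counts in microglia moved from between -5.65 and -3.76 on the log2 scale with buffer to between 0.39 and 0.94 with ENV.

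**Figure D3:**
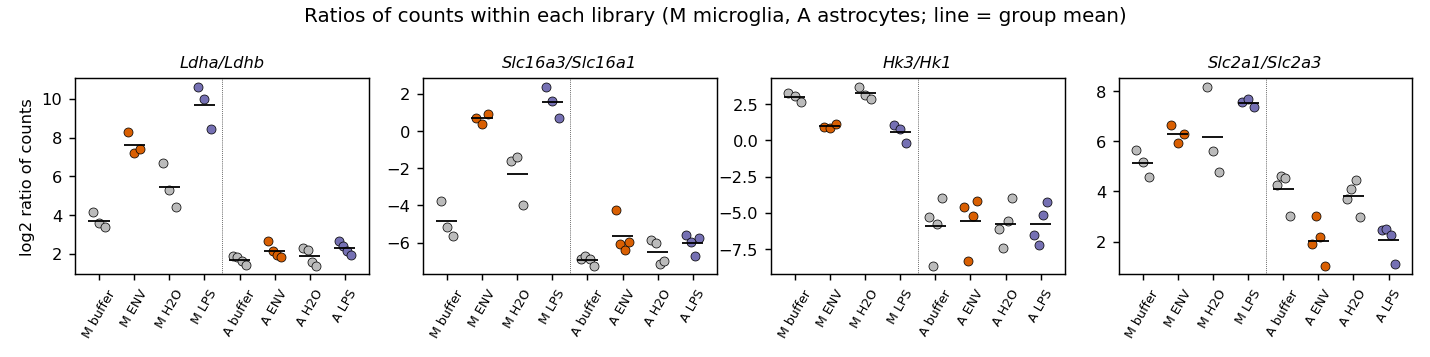
Log2 ratios of the counts of 2 genes within each library. M is microglia, A is astrocytes, points are libraries and lines are group means. A ratio follows a pair across groups and does not compare levels of the 2 genes, whose lengths differ. The Ldha to Ldhb ratio is 3.37 to 6.66 in vehicle microglia and 7.198 to 10.62 in treated microglia.

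At the mitochondrial gate, the kinase genes Pdk1 and Pdk3 rose in microglia with ENV, and Pdk3 also with LPS, while Pdha1, which encodes the enzyme's catalytic subunit, did not pass there. Pdk1, a kinase known as a hypoxia response gene, stood in microglia at 18.5, 17.4 and 15.3 CPM with buffer and 29.4, 33.4 and 41.3 with ENV, and at 30.7, 24.04 and 19.7 CPM with H2O and 35.7, 26.9 and 29.4 with LPS. With ENV every library was above buffer, by 1.22 ± 0.15, adjusted p = 0.00151. With LPS the groups overlapped, and the change of 0.61 ± 0.23, adjusted p = 0.0881, passed with the replicate block (0.0433). In astrocytes Pdk1 stood at 39.3, 31.96, 36.6 and 30.996 CPM with buffer and 18.7, 17.1, 18.8 and 20.8 with ENV, and at 22.5, 26.7, 38.1 and 32.1 CPM with H2O and 14.2, 14.5, 20.6 and 20.8 with LPS. Both treated groups lay wholly below their vehicles. The ENV change was -0.87 ± 0.11, adjusted p = 0.00199, and the LPS change of -0.74 ± 0.22, adjusted p = 0.0934, passed with the replicate block (0.00814). In replicates 3 and 4 alone the ENV call was lost (adjusted p = 0.0819).

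Pdk3, a kinase of the same family, stood in microglia at 19.1, 20.9 and 24.8 CPM with buffer and 27.4, 24.02 and 28.5 with ENV, and at 14.99, 13.002 and 18.9 CPM with H2O and 33.8, 25.98 and 18.99 with LPS. The changes were 0.50 ± 0.15, adjusted p = 0.0467 and 1.06 ± 0.26, adjusted p = 0.0267. They were lost without any 1 of buffer replicates 1 and 2 and ENV replicates 1, 2 and 3 (adjusted p 0.0636 to 0.138), and without any 1 of H2O replicates 1 and 2 and LPS replicates 1 and 2 (0.06 to 0.0993). Astrocytes held 46.1, 47.4, 44.4 and 46.6 CPM with buffer and 53.6, 57.6, 62.5 and 47.02 with ENV, and 48.6, 48.7, 46.5 and 50.6 CPM with H2O and 45.9, 51.1, 53.6 and 48.4 with LPS, with changes of 0.27 ± 0.10 and 0.05 ± 0.09. Pdha1, the catalytic subunit, ran from 67.4 to 127 CPM in microglia and from 115 to 176 CPM in astrocytes. Its microglial changes were -0.04 ± 0.16 and -0.10 ± 0.17. In astrocytes both treated groups lay below the vehicles, by -0.32 ± 0.10, adjusted p = 0.0632 and -0.23 ± 0.11, adjusted p = 0.253, and the ENV change passed with the replicate block (0.0156), by DESeq2 (0.0178), under upper quartile scaling (0.0254) and in the fit of all 4 groups (0.0291).

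The 3 pentose phosphate enzymes rose in microglia with ENV, by log2 changes of 0.53 to 0.63. Pgd, which makes NADPH in the oxidative branch, ran from 413 to 718 CPM in microglia and changed by 0.53 ± 0.11, adjusted p = 0.0114 with ENV and 0.05 ± 0.23, adjusted p = 0.888 with LPS. Tkt and Taldo1, the enzymes that shuttle sugar pieces back to glycolysis, changed by 0.60 ± 0.17, adjusted p = 0.0358 and by 0.63 ± 0.17, adjusted p = 0.0282 with ENV in microglia. Without any 1 of buffer replicates 1 and 2 and ENV replicates 1 and 3, both were lost (0.0911 to 0.113 for Tkt and 0.0759 to 0.0928 for Taldo1). Their LPS changes, 0.66 ± 0.34 and 0.64 ± 0.25, did not pass. Over all microglial libraries Tkt ran from 339 to 839 CPM and Taldo1 from 226 to 433 CPM. In astrocytes their changes, from 0.07 ± 0.17 for Tkt with LPS to 0.35 ± 0.14 for Taldo1 with ENV, did not pass. All 3 ENV calls of this branch in microglia were lost under scaling by library totals (adjusted p 0.0535 to 0.0713).

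The responses were compared directly between the cell types over the 27 shared members. The ENV response was greater in microglia for 14 members and smaller for 1, Pfkp, beside 14.9% of all genes called (6.87% greater, 8.07% smaller), with a median difference of 1.17 on the log2 scale against -0.06 over all genes. For LPS, 15 members had a greater response in microglia and 0 a smaller one, beside 12.5% of all genes (5.32% greater, 7.14% smaller), with a median of 1.31 against -0.12. Slc2a1 differed most, by 3.35 ± 0.46, adjusted p = 0.000627 with ENV and 4.49 ± 0.52, adjusted p = 0.000429 with LPS. Ldha differed by 2.54 ± 0.17, adjusted p = 8.40e-06 and 2.35 ± 0.24, adjusted p = 0.000218. Hk1 differed by 1.92 ± 0.18, adjusted p = 5.18e-05 and 2.55 ± 0.27, adjusted p = 0.000261, and Eno1 by 1.95 ± 0.20, adjusted p = 6.93e-05 and 2.46 ± 0.28, adjusted p = 0.000384. Pdk1, which went up in microglia and down in astrocytes with ENV, differed by 2.08 ± 0.19, adjusted p = 3.99e-05 and 1.34 ± 0.33, adjusted p = 0.0229. Slc2a1, Slc2a6, Hk1, Gpi, Pfkl, Pfkfb3, Pfkfb4, Tpi1, Pgam1, Eno1, Pkm, Ldha and Slc16a3 were higher in both microglial comparisons and in both differences between the cell types.

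Some of these calls did not hold when 1 library was left out, though the log2 differences kept their sign under every alternative. For Slc16a3 with LPS they ran from 2.48 to 3.56, and for Pfkp with ENV from -0.913 to -0.611. Slc16a3 differed by 2.70 ± 0.76, adjusted p = 0.032 and 2.92 ± 0.86, adjusted p = 0.0445. It lost the ENV call without any 1 of microglial buffer replicates 2 and 3, microglial ENV replicates 1 and 3, astrocyte buffer replicates 1 and 3 and astrocyte ENV replicate 3 (adjusted p 0.0509 to 0.0813). Its LPS call was lost without any 1 of the 14 libraries except astrocyte LPS replicate 4 (0.0534 to 0.0911). Pfkfb4 differed by 1.06 ± 0.30, adjusted p = 0.0407 with LPS, and was lost without any 1 of microglial H2O replicates 1 and 3, microglial LPS replicates 1 and 2, astrocyte H2O replicates 2, 3 and 4 and any astrocyte LPS replicate (0.0513 to 0.103). The difference of Pfkp, -0.73 ± 0.23, adjusted p = 0.0496, was lost without any 1 of the 14 libraries except astrocyte buffer replicate 1 and astrocyte ENV replicate 4 (0.0517 to 0.114). With all libraries kept, it was also lost with DESeq2 size factors (0.0621), with TMM computed without the members (0.0502) and with no filter on low counts (0.0549). Pdk1 with LPS was lost without any 1 of microglial LPS replicate 1, microglial H2O replicates 2 and 3 and astrocyte H2O replicate 3 (0.051 to 0.0563), and Pdk3 (0.98 ± 0.24, adjusted p = 0.021) without microglial H2O replicate 1 or 2 (0.0524 and 0.0561). With the replicate number as a block, 4 more differences passed. These were Ldhb (0.00917) and Slc16a1 (0.0259) with ENV and Aldoc (0.0267) and Ldhb (0.00527) with LPS. Library totals as the scaling left 16 and 13 called, and the share of higher calls over all genes fell from 46.0 to 25.9% with ENV and from 42.7 to 19.8% with LPS.

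**Figure D4:**
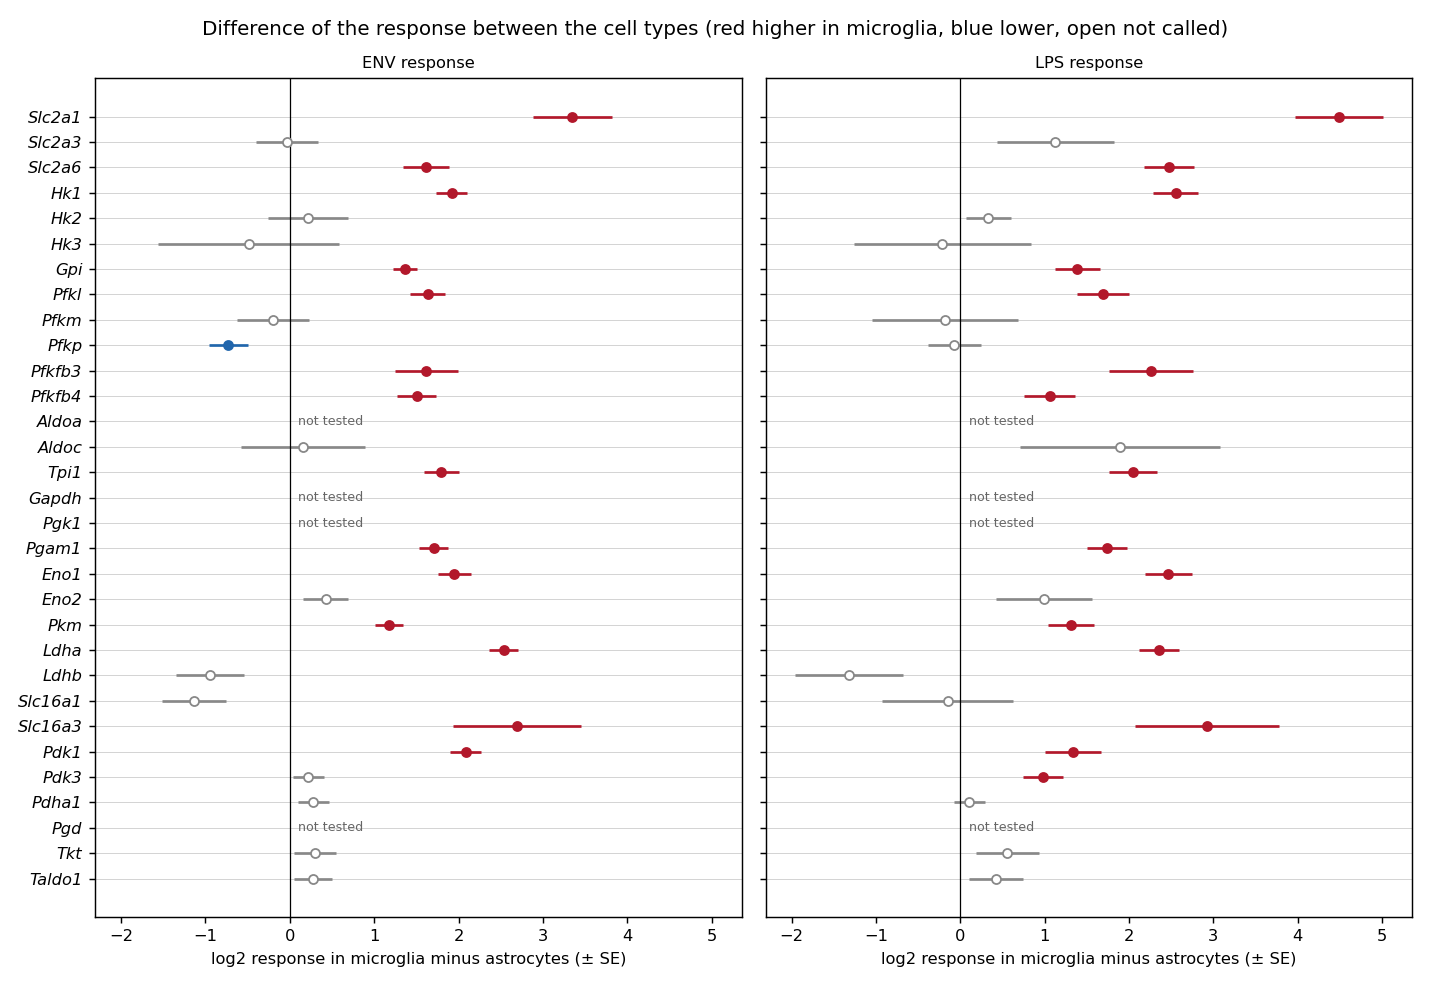
Log2 response in microglia minus that in astrocytes, with the standard error, for ENV and LPS. Red points passed as a greater response in microglia, the blue point as a smaller one, and open points did not pass. Slc2a1 stands farthest to the right, at 3.35 and 4.49.

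The ENV response was not called different from the LPS response for any member or any other gene in either cell type (0% called by edgeR). At an unadjusted p under 0.05, 937 genes and 5 members differed in microglia and 76 genes and 0 members in astrocytes. DESeq2 called 0 members in either, and over all genes 67 (0.505%) in microglia and 0 in astrocytes. The 5 members were Pfkp, Slc2a6, Hk1, Aldoc and Slc16a1, each with a smaller ENV response, between -0.63 ± 0.23 for Hk1 and -1.82 ± 0.76 for Aldoc, and the least of their unadjusted p was 0.0132. The intervals were wide, as for Ldha in microglia (95% interval -0.46 to 0.83) and Slc2a1 (-2.52 to 0.06), so that a difference in size was not shown for these genes and could not be bounded closely.

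The vehicle groups set the levels from which these changes started. Between buffer groups, 7 members were higher in microglia and 14 lower, of 27, beside 70.4% of all genes (34.3% higher, 36.1% lower). Between H2O groups 7 were higher and 11 lower, beside 66.6% (31.1% higher, 35.6% lower). Preparation, gene table and cell type cannot be told apart in these values. Hk2 and Hk3 were higher in microglia, by 2.57 ± 0.34 and 5.63 ± 0.87 between buffer groups and 2.63 ± 0.19 and 5.77 ± 0.85 between H2O groups. Lower in microglia were Hk1 (-2.72 ± 0.14 and -2.85 ± 0.21), Slc2a1 (-2.71 ± 0.35 and -2.42 ± 0.38), Ldhb (-2.85 ± 0.31 and -4.13 ± 0.52), Slc16a1 (-2.19 ± 0.29 and -2.10 ± 0.59) and Ldha (-0.88 ± 0.12 and -0.61 ± 0.17). Each of these 7 genes passed in both vehicle comparisons. Scaled by library totals, 3 members were higher and 16 lower between buffer groups and 5 and 16 between H2O groups, and 33.9 and 27.9% of all genes called were higher, against 48.7 and 46.6% under TMM. Between the 2 vehicles, 0 members were called in microglia (0.211% of all genes, 9 members at an unadjusted p under 0.05, 3 members by DESeq2) and 0 in astrocytes (0%, 0 members unadjusted, 0 by DESeq2). Without microglial H2O replicate 3, 4 members passed between buffer and H2O, beside 9.01% of all genes. Aldoc (3.55) and Pfkm (3.63) were higher with buffer, and Slc16a3 (-2.92) and Pdk1 (-0.92) were lower.

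Other genes of glucose handling were counted in lists chosen for their place in the pathway. Their counts are read beside the 30.9 and 29.8% of all genes called with ENV and LPS in microglia and the 17.9 and 5.34% in astrocytes, and no list was compared with the members by a test. Of 22 regulators of glycolytic transcription, 18 were tested in the microglial ENV comparison, with 5 higher and 1 lower, a share near that of all genes, and 16 with LPS, with 5 higher and 0 lower. In astrocytes 19 were tested, with 6 higher and 2 lower with ENV and 1 higher and 0 lower with LPS. Hif1a, the oxygen-sensed subunit of the main hypoxia-inducible factor, was higher in all 4 comparisons. It went from 192 CPM to 672 CPM with ENV (2.03 ± 0.26, adjusted p = 0.00182) and from 247 CPM to 857 CPM with LPS (2.11 ± 0.24, adjusted p = 0.00331) in microglia. In astrocytes it changed by 1.02 ± 0.17, adjusted p = 0.00607 with ENV and 0.83 ± 0.11, adjusted p = 0.00773 with LPS. Myc, a growth regulator that drives many glycolytic genes, fell in microglia with ENV (-1.41 ± 0.25, adjusted p = 0.00656). Arrdc4, a glucose-responsive inhibitor of uptake, rose in astrocytes with ENV (1.61 ± 0.31, adjusted p = 0.0107), while Mycn (-2.21 ± 0.56, adjusted p = 0.0286) and Ppargc1a (-1.42 ± 0.34, adjusted p = 0.023), a driver of mitochondrial biogenesis, fell there. Hif3a was called with LPS in microglia, but its H2O mean of 0.0317 CPM is under what 3 counts allow, so no fold is given.

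Of 17 genes of glycogen and gluconeogenesis, 12 were tested in microglia, with 6 higher and 1 lower with ENV and 4 higher and 1 lower with LPS. Gys1, glycogen synthase, went from 23.01 CPM to 101 CPM (2.33 ± 0.14, adjusted p = 0.000181) with ENV and changed by 2.23 ± 0.35, adjusted p = 0.00753 with LPS. Pygl, the phosphorylase that breaks glycogen down, went from 28.1 CPM to 158 CPM (2.70 ± 0.27, adjusted p = 0.000695) and changed by 1.88 ± 0.22, adjusted p = 0.00342 with LPS. Genes for making and for breaking glycogen thus rose side by side. Pgm2l1, which makes the sugar bisphosphate that phosphoglucomutases need, fell with LPS (-1.45 ± 0.31, adjusted p = 0.0175). In astrocytes 14 were tested, with 2 higher and 2 lower with ENV and 0 called with LPS.

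Of the 12 genes of pyruvate entry and pyruvate dehydrogenase, 11 were tested in each comparison. In microglia 0 were higher, with 1 lower with ENV and 3 lower with LPS, and in astrocytes 2 were higher and 2 lower with ENV and 0 higher and 1 lower with LPS. Pdk4, the kinase linked to fasting and fat oxidation, fell in microglia while Pdk1 and Pdk3 rose with ENV. It went from 4.41 CPM to 0.427 CPM with LPS (-3.02 ± 0.76, adjusted p = 0.0304), and from 1.28 CPM to 0.102 CPM with ENV, where the treated mean is about what 3 counts allow. Pdpr, the regulatory subunit of pyruvate dehydrogenase phosphatase, fell with LPS (-1.01 ± 0.16, adjusted p = 0.00735). The rest of the pentose phosphate list had 2 of 7 tested genes higher and 1 lower in microglia with either treatment. In astrocytes 2 of 9 were higher with ENV and 1 with LPS, and none of these changes reached 1 on the log2 scale.

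Of the 13 other glucose and monocarboxylate transporters, 9 were tested in microglia with ENV (1 higher, 4 lower) and 8 with LPS (1 higher, 1 lower). Slc16a7 (MCT2), a carrier with high affinity for lactate and pyruvate, fell, with log2 changes of -1.24 ± 0.33, adjusted p = 0.0281 and -1.87 ± 0.33, adjusted p = 0.0109. Slc2a8 fell with ENV (-1.13 ± 0.17, adjusted p = 0.0038). Bsg, the partner protein that MCT1 and MCT4 need at the membrane, rose by 0.55 ± 0.17, adjusted p = 0.0452 and 1.03 ± 0.21, adjusted p = 0.0162. In astrocytes 11 were tested, with 0 higher and 3 lower with ENV and 0 higher and 2 lower with LPS. Slc2a5, the fructose carrier that marks microglia in brain, went from 1.89 CPM to 0.378 CPM there with ENV. Microglial markers there summed to 229.8 to 965.9 CPM with buffer and 157.1 to 517.1 CPM with ENV. These groups overlapped, with the ENV library lower in every same-numbered pair. Of 16 other glycolytic isozymes and side steps, 0 of 9 tested were called with ENV and 2 with LPS in microglia, Pgam2 (-1.86 ± 0.40, adjusted p = 0.018) and Pfkfb2 (-1.29 ± 0.26, adjusted p = 0.0158), both lower, and 0 of 11 in astrocytes with either treatment.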

How the data were processed

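The deposited files, made by the authors, hold counts per gene symbol for each of 28 libraries, as whole numbers with no normalization. The submitters' processing notes name HISAT2, the assembly mRatBN7.2 and StringTie 1.3.3b. No settings, annotation or strand is given in the sources used here. Reads shared with near-identical copies, as of Gapdh, Aldoa, Eno1, Ldha, Pgam1, Pkm and Tpi1, or between overlapping genes cannot be separated. Tables listed 23139 (microglia), 20268 and 20056 (astrocyte ENV and LPS sets) genes and were joined by symbol.

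Groups were taken from the sample labels. Treated libraries were set against those of the matching vehicle by edgeR's quasi-likelihood test (2-sided; edgeR 4.0.16, limma 3.58.1, R 4.3.3; filterByExpr, TMM, robust), and differences of responses as contrasts. In all, 12 comparisons were made. P-values were adjusted by Benjamini-Hochberg over all genes tested, with calls at an adjusted p under 0.05. Standard errors accompany the log2 changes. The script was tested on simulated data. Alternatives were other scalings, no filter on low counts, DESeq2 1.42.0, a replicate block, a fit of all 4 groups, and libraries left out. Scaling by library totals alone and the splits of the astrocyte ENV set into replicates 1 and 2 and replicates 3 and 4 were added after seeing the data.

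Same-numbered libraries deviated together (correlations of deviations 0.317 to 0.469 and 0.416 to 0.514 in the microglial ENV and LPS sets, 0.26 to 0.637 and 0.529 to 0.634 in the astrocyte sets), so the numbers in the sample titles were read as pairs and blocked values are given where they change a call. Astrocyte LPS replicate 2 was an exception, with a higher correlation to H2O replicate 1 than to H2O replicate 2 (0.529). Intervals of log2 changes use each gene's total (residual plus prior) degrees of freedom in the edgeR test. No 2 libraries were identical among 378 pairs.

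The members and lists were chosen with earlier results of these data known. Library values are given for members called with a log2 change of at least 1 in a treated comparison or called in a difference of responses, other members are given by range, and listed genes outside the members are named when called with at least 1, at most 6 a list. Isozyme shares per transcript length were planned and not made, since no lengths were at hand. RefSeq promoters are on a later build than the counts.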

Additional observations from a re-analysis of the deposited data

Results flagged for a closer look

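Of 116 astrocyte groups of 4 libraries checked for a library far from the others, 6 had one, where chance gives about 1 in 20. Slc2a3 was high in LPS replicate 4 (95.8 CPM), Hk2 in H2O replicate 4 (24.6 CPM), Pfkl in ENV replicate 4 (226 CPM) and Tkt in buffer replicate 4 (456 CPM). Ldha was low in LPS replicate 2 (794 CPM) and Tkt in ENV replicate 3 (317 CPM). 4 of the 6 were in replicate 4.

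The difference of the response between the cell types passed the test for 15 members with ENV and 15 with LPS, as log2 response in microglia minus astrocytes. With ENV it was 3.35 for Slc2a1, 1.61 for Slc2a6, 1.92 for Hk1, 1.37 for Gpi, 1.63 for Pfkl, -0.73 for Pfkp, 1.62 for Pfkfb3, 1.504 for Pfkfb4, 1.80 for Tpi1, 1.71 for Pgam1, 1.95 for Eno1, 1.17 for Pkm, 2.54 for Ldha, 2.70 for Slc16a3 and 2.08 for Pdk1. With LPS it was 4.49 for Slc2a1, 2.47 for Slc2a6, 2.55 for Hk1, 1.39 for Gpi, 1.69 for Pfkl, 2.26 for Pfkfb3, 1.06 for Pfkfb4, 2.04 for Tpi1, 1.73 for Pgam1, 2.46 for Eno1, 1.31 for Pkm, 2.35 for Ldha, 2.92 for Slc16a3, 1.34 for Pdk1 and 0.98 for Pdk3.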

How the results depend on the processing

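Of 6535 member values recomputed, 6271 kept their side of the threshold, 155 lost and 109 gained a call. The sign changed in 360 values that were called neither before nor after, and in 0 values called in either fit. Eno1, Gapdh, Hk1, Ldha, Pfkl, Pgam1, Pkm, Slc16a3, Slc2a1, Slc2a6 and Tpi1 kept both microglial calls under every alternative run. Members called in microglia with 1 library left out numbered 16 to 25 with ENV and 11 to 18 with LPS. The fit of all 4 microglial groups called 15 with ENV and 19 with LPS. Eno2, Ldhb, Pdk3, Pfkfb3, Slc2a3, Taldo1 and Tkt lost their ENV call in that fit (adjusted p 0.0592 to 0.315). With ENV in astrocytes 5 were called, 11 by DESeq2, 13 with the replicate block (7 higher, 6 lower), 1 in replicates 1 and 2 alone, 3 in replicates 3 and 4 alone and 4 to 8 with 1 library left out (8 without ENV replicate 2). With LPS in astrocytes 1 was called, 2 by DESeq2, 8 with the replicate block (2 higher, 6 lower), 2 in the fit of all 4 groups, 8 in replicates 1 and 2 alone, 2 in replicates 3 and 4 alone and 0 to 1 with 1 library left out (1 without LPS replicate 2 or H2O replicate 4, 0 without any other). Between the microglial vehicles 0 were called, 3 by DESeq2 and 0 to 4 with 1 library left out (4 without H2O replicate 3). The replicate block made 25 and 19 members called in microglia (22 and 16 without) and 17 in each difference between the cell types.

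Over all genes, the astrocyte LPS comparison called 785, 2049 by DESeq2, 2611 with the block, 1736 in the fit of 4 groups and 2970 in replicates 1 and 2 alone. The astrocyte ENV comparison called 2670, 4348 with the block, 372 in replicates 1 and 2 alone and 950 in replicates 3 and 4 alone. The difference between cell types called 1998 with ENV (3314 with the block) and 1656 with LPS (2720 by DESeq2, 3029 with the block, and 54.6% of calls higher with DESeq2 size factors against 42.7%). Between microglial vehicles 28 genes were called, 11 to 555 under other settings with all libraries kept, and 0 (without buffer replicate 1 or H2O replicate 1) to 1203 (9.01%, without H2O replicate 3) with 1 library left out. With 1 library left out, calls over all genes ran from 2466 (without buffer replicate 2) to 5282 in the microglial ENV comparison (3972 with all), from 1351 (without H2O replicate 1) to 3986 in the LPS comparison (3647), from 1487 (without buffer replicate 3) to 2869 with ENV in astrocytes and from 236 (without H2O replicate 3) to 681 with LPS there.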
